A study of Mus musculus with 6 samples.

Results

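Cytochrome b5 electron transfer genes were examined in 6 libraries of mouse intestinal organoids, epithelial cultures grown from the gut. The 6 genes (Cyb5a, Cyb5b, Cyb5r1, Cyb5r3, Cyb5r4 and Por) were taken by symbol from a table of 52249 genes. All 6 were found, and all 6 were among the 10687 genes with enough counts to be tested. They were picked with the difference between the groups already known, so their own differences are given as a description, with no test. All organoids carried an Apc knockout, which removes a brake on WNT signalling; 3 libraries, called control here, had the genotype Apc-knockout alone. The other 3, called OE-labelled, came from Apc-knockout organoids labelled as overexpressing IGF2BP3, an RNA-binding protein. How IGF2BP3 was overexpressed, how Apc was inactivated, and whether each library is a separate culture are not given in the sources used here. The tests below therefore measure only the spread between these libraries, which may be technical.

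Cytochrome b5 is a small haem protein that hands single electrons to enzymes of the endoplasmic reticulum membrane. NADH-cytochrome b5 reductase, a flavoprotein, loads it with electrons from NADH, while NADPH-cytochrome P450 reductase (POR) draws on NADPH and serves mainly the cytochromes P450, squalene epoxidase and haem oxygenase. The electrons are used to put double bonds into fatty acids, to elongate them, to remove methyl groups from sterols and to oxidise drugs and steroids, and the gut epithelium is a known site of such drug metabolism.

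Sequencing near the 3′ end of polyadenylated RNA gave 2180116 to 2228078 counts per control library and 2310236 to 2519917 per OE-labelled library. Mitochondrially encoded genes took 11.6% to 12% of the control counts and 6.77% to 7.19% of the OE-labelled counts, without overlap; with these genes left out, the members' log2 fold changes were 1.36 for Cyb5a, 0.4 for Cyb5b, 0.61 for Cyb5r3 and -0.52 for Por. Igf2bp3 itself had 1, 0 and 0 counts in control replicates 1 to 3 and 1, 0 and 0 in OE-labelled replicates 1 to 3, below the floor of 3 counts, so it gave no check of the label. The epithelial identity of the cultures was visible in Epcam, at 430.8 to 433.5 CPM in control and 429 to 479 CPM in OE-labelled libraries, where CPM is a count relative to the TMM-scaled library total. The other epithelial markers did not all stay level: of 7 listed, Krt8, Krt18, Krt19 and Vil1 were higher in OE-labelled libraries, and the sum of the 7 ran from 3948 to 4172 CPM in control and from 5325 to 6025 CPM in OE-labelled libraries. Krt18 alone had 1160.1 to 1201.5 CPM in control and 2088.8 to 2442.6 CPM in OE-labelled libraries. The part of these epithelial markers in the results below was not tested. The 9 markers of absorptive enterocytes summed to 0 to 0.922 CPM in control and 0.81 to 2.11 CPM in OE-labelled libraries, with Alpi, Sis, Apoa1, Apoa4, Fabp1 and Anpep at 0 counts throughout. Mesenchymal markers summed to at most 1.41 CPM and endothelial markers to at most 0.461 CPM. Of 6 immune markers Csf1r alone passed the count filter, at 27.7 to 32.7 CPM in control and 44 to 55.5 CPM in OE-labelled libraries, while Cd3e and Cd79a were at 0 counts and Ptprc reached 0.9 CPM. The library names put the groups in separate series, so series and group cannot be told apart.

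Cyb5a and Cyb5b, the cytochromes b5 without a reductase domain, were both higher in the OE-labelled libraries. Cyb5a, the microsomal cytochrome b5, showed the largest difference of the 6 genes, and Cyb5b, the form anchored in the outer mitochondrial membrane, a smaller one in the same direction. Of the reductases, Cyb5r3 was higher, Cyb5r1 and Cyb5r4 overlapped between the groups, and Por was lower. By the edgeR threshold used for the whole table (adjusted p below 0.05), 3 members counted as higher, 1 as lower and 2 as neither. Over all tested genes 29.2% passed that threshold, 16.5% as higher and 12.7% as lower. That balance of 1765 to 1353 genes depended on the scaling, with 1536 to 1541 under RLE size factors, 2035 to 1154 under library totals and 1504 to 1603 without mitochondrial genes. Control and OE-labelled CPM values were fully separated for 4 members, against 45.7% of all tested genes (25.3% with the OE-labelled libraries above, 20.5% with them below). Since the members were picked on this contrast, nothing is read from these counts. The median log2 fold change was 0.31 over the 6 members and 0.04 over all genes tested.

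**Figure D1:**
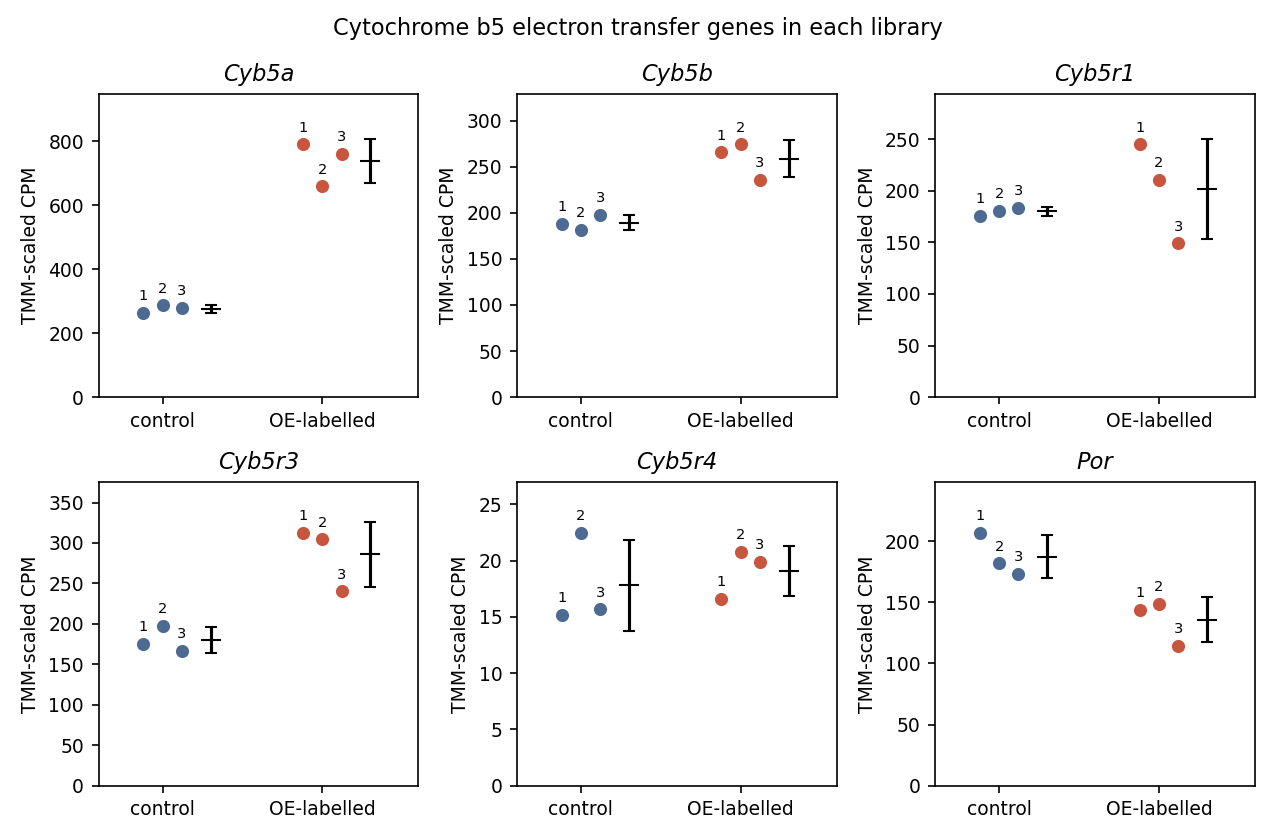
TMM-scaled CPM of each member in each library; points are libraries numbered by replicate, and the bar beside each group is its mean with 1 SD (n = 3). The OE-labelled points of Cyb5a, Cyb5b and Cyb5r3 lie above all control points, those of Por lie below, and those of Cyb5r1 and Cyb5r4 overlap with them.

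Cyb5a (ENSMUSG00000024646; GRCm38 chromosome 18, 84838704 to 84879871, plus strand) encodes the microsomal protein that donates to desaturases and to several cytochromes P450. It was counted at 263.2, 287.6 and 279.2 CPM in control replicates 1, 2 and 3 and at 790.8, 659.4 and 761 CPM in the OE-labelled replicates. The lowest OE-labelled library thus stood well above the highest control library, and replicate 2 was the lowest of the OE-labelled group. Group means were 276.6 ± 12.4 CPM and 737.1 ± 68.9 CPM (SD, n = 3), for a log2 difference of 1.41 (SE 0.11) and 2.66-fold as a ratio. Of the other tested genes, 63 (0.59%) had a higher log2 fold change. Markers of the secretory lineage were also higher in the OE-labelled libraries, their sum running from 653.8 to 686.3 CPM in control and from 1339 to 1538 CPM in OE-labelled libraries. That sum came mostly from Spink4 and Tff3, the 2 of 7 listed markers that passed the threshold, with Lyz1 and Chga at 0 counts and Muc2 at no more than 6.1 CPM. Dclk1, listed for tuft cells, was abundant but did not pass, at 105.5 to 121.2 CPM in control and 117.6 to 146.7 CPM in OE-labelled libraries. The part of secretory cells in the Cyb5a difference was not tested. In bulk cultures a larger share of cells with a transcript and more of it per cell cannot be told apart.

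Cyb5b (ENSMUSG00000031924; GRCm38 chromosome 8, 107150640 to 107187471, plus strand) was counted at 188, 181.6 and 197.7 CPM in control replicates 1, 2 and 3. The OE-labelled replicates held 265.8, 274.5 and 235.9 CPM, all above the control range, with replicate 3 closest to it. The means of 189.1 ± 8.1 CPM and 258.7 ± 20.2 CPM (SD, n = 3) differed by a log2 fold change of 0.45 (SE 0.11), or 1.37-fold. A higher log2 fold change was found for 20.3% of the tested genes. Without control replicate 2 the value was 0.42 and no longer counted as higher.

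Cyb5r3 (ENSMUSG00000018042; GRCm38 chromosome 15, 83153494 to 83172592, minus strand) encodes the main NADH-cytochrome b5 reductase, which loads cytochrome b5. Its control values were 175.6, 197.5 and 166.8 CPM in replicates 1, 2 and 3, and its OE-labelled values were 312.8, 304.8 and 240.1 CPM. The groups did not overlap, and OE-labelled replicate 3 was again the lowest of its group. Means of 180 ± 15.8 CPM and 285.9 ± 39.8 CPM (SD, n = 3) differed by a log2 fold change of 0.67 (SE 0.13), or 1.59-fold, exceeded by 10.4% of the tested genes.

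Cyb5r1 (ENSMUSG00000026456; GRCm38 chromosome 1, 134405559 to 134411740, plus strand), a membrane-bound relative of Cyb5r3, differed most among the OE-labelled libraries. Control replicates 1, 2 and 3 lay close together at 175.6, 180.6 and 183.4 CPM, whereas the OE-labelled replicates held 245.1, 210.4 and 149.2 CPM. OE-labelled replicates 1 and 2 were above the control range and replicate 3 below it. Control libraries had a coefficient of variation of 2.19% and OE-labelled libraries one of 24.1% (n = 3 each). The log2 fold change of 0.17 (SE 0.15) became 0.11 without OE-labelled replicate 2, -0.05 without OE-labelled replicate 1 and 0.34 without OE-labelled replicate 3. Cyb5r1 counted as higher in the fit without OE-labelled replicate 3 and in no other alternative.

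Cyb5r4 (ENSMUSG00000032872; GRCm38 chromosome 9, 87022014 to 87077774, plus strand) encodes a soluble reductase that carries a cytochrome b5 domain and a reductase domain in a single chain. It rested on few reads, with 33, 48 and 34 counts in control replicates 1, 2 and 3 and 41, 53 and 47 counts in the OE-labelled replicates. In CPM these were 15.2, 22.5 and 15.7 against 16.6, 20.8 and 19.9, so that the OE-labelled values lay inside the control range. The log2 fold change was 0.1 (SE 0.22), a difference not detectable at this depth. It was 0 without control replicate 1, 0.02 without control replicate 3, 0.01 without OE-labelled replicate 2 and 0.31 without control replicate 2.

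Por (ENSMUSG00000005514; GRCm38 chromosome 5, 135670033 to 135735326, plus strand), the NADPH-dependent reductase, was the member that stood lower. Control replicates 1, 2 and 3 held 206.9, 182 and 173.2 CPM and the OE-labelled replicates 143.8, 148.6 and 114.6 CPM. No OE-labelled library reached the lowest control library, and OE-labelled replicate 3 was the lowest of all. The means of 187.4 ± 17.5 CPM and 135.7 ± 18.4 CPM (SD, n = 3) differed by a log2 fold change of -0.46 (SE 0.13), and 16.5% of the tested genes had a lower one. Leaving out control replicate 1 gave -0.39 and leaving out control replicate 2 gave -0.49, and neither value then counted as lower.

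**Figure D2:**
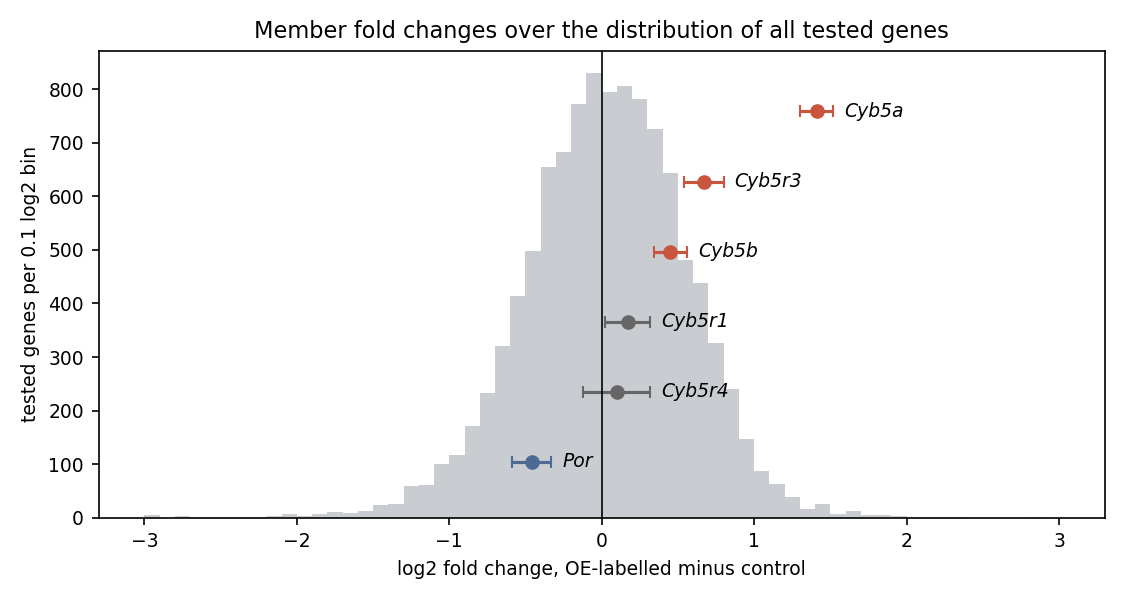
Log2 fold change (OE-labelled minus control) of the 6 members with 1 SE, drawn over the histogram of all 10687 tested genes, whose most extreme values are in the end bins; the height of a member's point has no meaning. Cyb5a at 1.41 lies in the right tail, Por at -0.46 lies left of 0, and the other members lie between 0.1 and 0.67.

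Ratios of counts within a library do not depend on how libraries are scaled to each other, so they were used to see whether the members moved apart. Cyb5a counts were 1.4, 1.58 and 1.41 times those of Cyb5b in control replicates 1, 2 and 3 and 2.98, 2.4 and 3.23 times in the OE-labelled replicates. The ratio of the microsomal to the mitochondrial form was thus higher in every OE-labelled library. The ratio of Cyb5r3, which uses NADH, to Por, which uses NADPH, was 0.849, 1.09 and 0.963 in the control replicates but 2.17, 2.05 and 2.1 in the OE-labelled replicates. Its means were 0.965 ± 0.118 and 2.11 ± 0.0629 (SD, n = 3). Relative to its mean, this ratio varied less than either gene's CPM in the OE-labelled group but more in the control group. Cyb5a to Por went from 1.49 ± 0.188 to 5.53 ± 1.1 (SD, n = 3), with no overlap. For Cyb5b to Cyb5r3 the control ratios were 1.07, 0.919 and 1.19 and the OE-labelled ratios 0.85, 0.901 and 0.982, so these genes overlapped between the groups in their ratio. These ratios come from the contrast on which the members were picked and carry no test.

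**Figure D3:**
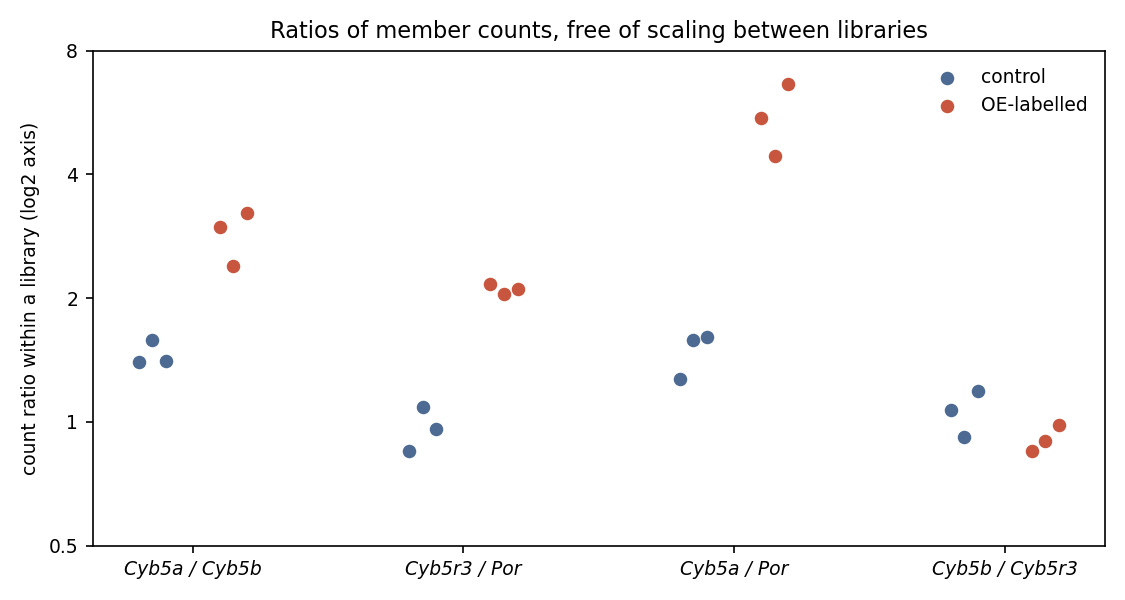
Ratio of the counts of 2 members within each library, on a log2 axis; each point is a library, blue for control and red for OE-labelled. Cyb5a to Cyb5b, Cyb5r3 to Por and Cyb5a to Por are higher in all OE-labelled libraries, while Cyb5b to Cyb5r3 overlaps around 1.

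The members share no chromosome, and their annotation gave little room for reads of other genes. All 6 are protein-coding, and the last 600 bases of their coding transcripts matched no other gene's transcript at 90% identity or more over at least 50 bases. Genes annotated on the opposite strand overlap Cyb5a (1 gene, Gm16146), Cyb5r3 (1 gene, Gm49463) and Por (2 genes, Gm43091 and Gm16061). Gm16146, Gm43091 and Gm16061 had 0 counts in every library and Gm49463 had 11 to 15. The GC content of the longest transcript ran from 42.3% in Cyb5r4 to 58.4% in Por, against a median of 49.7% over the tested genes. With an offset for GC content the log2 fold change was 1.37 for Cyb5a, 0.58 for Cyb5b, 0.46 for Cyb5r3, -0.71 for Por, 0.32 for Cyb5r4 and 0.03 for Cyb5r1 (0 with the replicate block as well). Por, Cyb5r4 and Cyb5r1 thus moved by more than 1.5 times, and none changed direction.

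Promoter sequences were available for 4 of the 6 members from RefSeq (GRCm38.p6), and 3 are shown because they belong to a member that was higher, a member that was lower and a member that overlapped between the groups. Each is printed 5′ to 3′ on the plus strand from 250 bases before the RefSeq start site up to the last base before an annotated exon: chr8:107150411-107150639 for Cyb5b, chr5:135688895-135689035 for Por and chr9:87021779-87022013 for Cyb5r4. The Por window belongs to a start site at 135689145, inside the annotated gene, which begins at 135670033. The Cyb5b and Cyb5r4 stretches end next to the annotated start of their gene. Capitals mark matches, on either strand, to a CCAAT box (CCAAT), a GC box (GGGCGG), an E-box (CACGTG, the motif bound by MYC), an antioxidant response element (TGACNNNGC) or a sterol response element (TCACNCCAC).
Cyb5b: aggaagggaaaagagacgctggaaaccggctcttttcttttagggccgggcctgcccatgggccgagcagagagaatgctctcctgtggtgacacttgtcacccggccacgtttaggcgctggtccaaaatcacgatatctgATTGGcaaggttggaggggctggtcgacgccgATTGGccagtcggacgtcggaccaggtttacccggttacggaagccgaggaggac
Por: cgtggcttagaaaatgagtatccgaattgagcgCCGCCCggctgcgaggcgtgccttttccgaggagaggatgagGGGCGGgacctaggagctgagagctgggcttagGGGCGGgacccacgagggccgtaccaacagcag
Cyb5r4: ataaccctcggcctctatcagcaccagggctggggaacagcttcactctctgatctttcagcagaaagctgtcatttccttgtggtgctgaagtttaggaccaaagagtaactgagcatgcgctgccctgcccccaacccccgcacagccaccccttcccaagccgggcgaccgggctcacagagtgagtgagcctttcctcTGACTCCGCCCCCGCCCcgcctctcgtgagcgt
The Cyb5b stretch holds 2 CCAAT boxes, both on the reverse strand, and the Por stretch holds 3 GC boxes, with 4 in its whole window of 300 bases. In Cyb5r4 the capitals join an antioxidant response element match to 2 GC boxes, the first of which overlaps it. Of all 32851 windows of that length, 37.4% hold a CCAAT box, 35.7% a GC box and 12.4% an antioxidant response element, so the matches are common ones. The E-box, found in 7.15% of windows, and the sterol response element, found in 1.24%, had 0 matches in these 3 genes and in Cyb5r1, whose window held 0 matches to any of the 5 motifs. Such matches describe letters in the window and do not show a binding site.

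Genes whose level over the 6 libraries ran most like each member were found by the distance between their log2 CPM values, each centred on its own mean, among 9261 named genes. Cyb5a ran most like Dmbt1 (distance 0.17, 96.8 to 112.4 CPM in control and 271.7 to 321.3 CPM in OE-labelled libraries) and Cracr2b (0.19). The nearest genes were Qars (0.079) and Rpn2 (0.097) for Cyb5b, and Spag7 (0.1) and Anapc13 (0.11) for Cyb5r3. Cyb5r1 ran most like Rassf7 (0.095), which had 229.7, 199 and 140.4 CPM in OE-labelled replicates 1, 2 and 3 and the same order as Cyb5r1, and Rab11fip3 (0.1). Por ran most like Rbm6 (0.1) and Ufl1 (0.11), and Cyb5r4 like Ddx39 (0.087) and Nck2 (0.13). With 6 libraries in 2 groups these are descriptions only.

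Genes of pathways with steps that use electrons from cytochrome b5 or POR were then counted, with related proteins, cofactor synthesis and tail-anchored protein insertion, from 6 lists. Not every listed gene takes these electrons itself, so the shares below do not measure the electron acceptors alone. Of 123 genes found in the table, 82 were tested; 31 passed as higher and 4 as lower at an edgeR adjusted p below 0.05, or 42.7%, beside 29.2% of all tested genes. Their median on the log2 scale was 0.29. The share passing in either direction was 55.6% for fatty acid desaturation and elongation, 53.3% for tail-anchored protein insertion and 50% for cofactor synthesis. It was 33.3% for P450 and haem oxygenase, 30.8% for squalene and sterol synthesis and 22.2% for related proteins. These last lists thus lay near or below the 29.2% of all tested genes. The lists were written with earlier results of these data known, and single genes are tested over all 10687 genes.

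**Figure D4:**
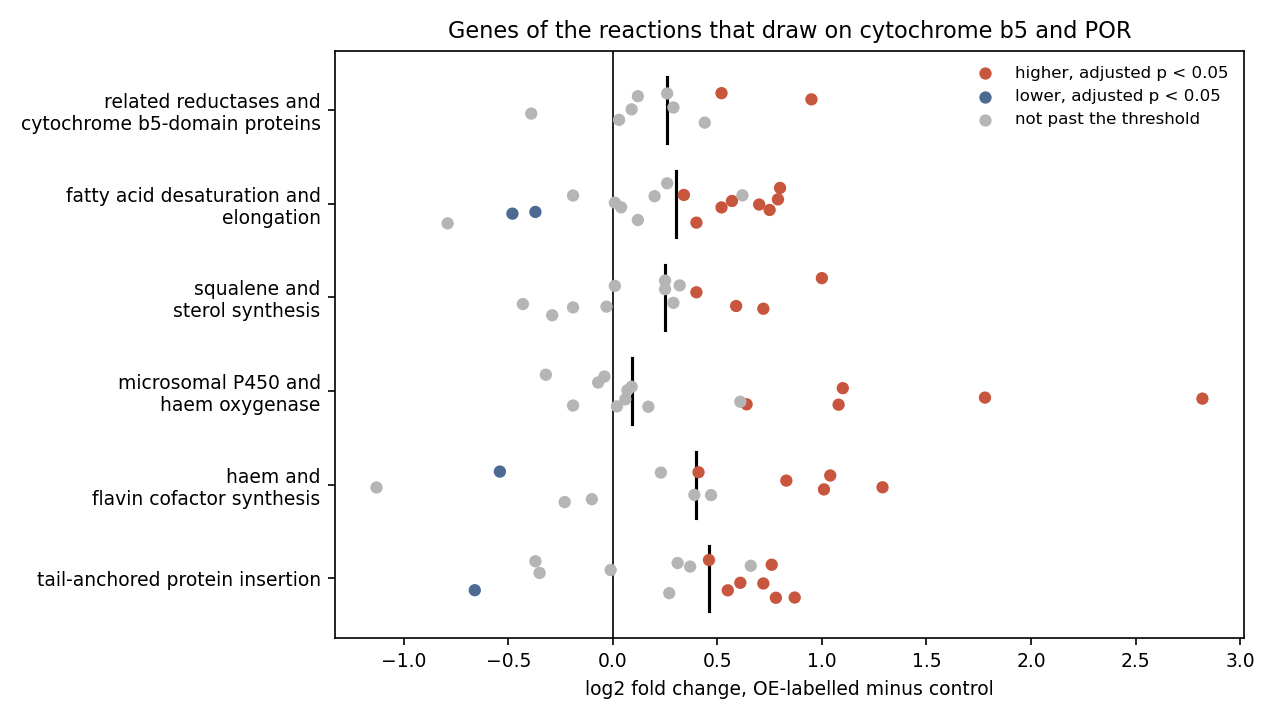
Log2 fold change (OE-labelled minus control) of each tested gene in 6 lists; red points passed as higher and blue as lower at an edgeR adjusted p below 0.05, grey points did not pass, black bars are list medians, and vertical scatter only separates points. Medians lie between 0.09 (microsomal P450 and haem oxygenase) and 0.46 (tail-anchored protein insertion).

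In fatty acid desaturation and elongation, 8 of 18 tested genes were higher and 2 lower, with a median log2 fold change of 0.3. Degs1, which desaturates dihydroceramide with electrons from cytochrome b5, rose from 102.8 ± 2.45 to 179 ± 9.46 CPM (SD, n = 3), for a log2 difference of 0.8 (SE 0.11, edgeR adjusted p = 0.000324). Its control values of 100.9, 105.6 and 101.8 CPM and OE-labelled values of 176.2, 189.5 and 171.2 CPM were both narrow. Elovl1, an elongase of very long chains, rose by 0.79 (SE 0.14, edgeR adjusted p = 0.00148) and Tecr, the last reductase of the elongation cycle, by 0.7 (SE 0.13, edgeR adjusted p = 0.00221). Elovl5, which elongates polyunsaturated chains, rose by 0.57 (SE 0.14, edgeR adjusted p = 0.00818), a call lost without control replicate 2 or OE-labelled replicate 2 (highest edgeR adjusted p 0.0638). Elovl7 and Hsd17b12, named after their values were seen, were the genes that fell, by 0.48 (edgeR adjusted p = 0.0234) and 0.37 (edgeR adjusted p = 0.039) on the log2 scale. Elovl7 no longer passed in 5 of 17 alternatives and Hsd17b12 in 9, both of them with the GC offset, without control replicate 1 or 3 and without OE-labelled replicate 2 (highest edgeR adjusted p 0.225 and 0.311). Hsd17b12 was also lost without control replicate 2 or OE-labelled replicate 3. The stearoyl-CoA desaturases, classic acceptors of cytochrome b5 and also named afterwards, differed in their calls: Scd2 rose by 0.34 (edgeR adjusted p = 0.0289; lost in 9 of 17 alternatives, among them each without a control replicate) and Scd1 had 0.12 (SE 0.14, edgeR adjusted p = 0.537). The front-end desaturases Fads1 and Fads2, named afterwards, had 0.26 (edgeR adjusted p = 0.109) and 0.2 (edgeR adjusted p = 0.377). The list count of 10 became 5, 4 and 4 without control replicate 1, 2 or 3 and 4 without OE-labelled replicate 2. Over all tested genes the 3118 calls became 1893, 1837, 1748 and 2299 in the same fits, so fewer calls there are not particular to this list or to those below. Elovl1 overlaps 1 gene on the opposite strand, Elovl7 overlaps 2, and Tecr overlaps 2 there and 1 on its own strand, so their counts are uncertain.

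In squalene and sterol synthesis, all 13 listed genes were tested, 4 were higher and 0 lower, and the median was 0.25. Without Fdft1, which makes squalene and so acts before the steps that use these electrons, 3 of 12 were higher (25%), a list choice made after the data were seen. Fdft1 rose from 80.67 ± 2.41 to 132.5 ± 7.52 CPM (SD, n = 3), for a log2 difference of 0.72 (SE 0.11, edgeR adjusted p = 0.00072). Dhcr7, the last enzyme of cholesterol synthesis in one branch, had 25.8, 17.8 and 18 CPM in control and 48.2, 40.9 and 33.8 CPM in OE-labelled libraries, a difference of 1 log2 unit (SE 0.2, edgeR adjusted p = 0.00321). Ebp, a sterol isomerase, rose by 0.4 (SE 0.12, edgeR adjusted p = 0.0278), and in 11 of 17 alternatives it did not pass, among them each fit without a control replicate or without OE-labelled replicate 1 or 2 (highest edgeR adjusted p 0.123, without control replicate 1). The direct acceptors of these electrons, named afterwards, did not pass: Sqle (squalene epoxidase, served by POR) had 0.25 (edgeR adjusted p = 0.074), Cyp51 0.01 (edgeR adjusted p = 0.969), Msmo1 -0.03 (edgeR adjusted p = 0.823) and Sc5d -0.43 (edgeR adjusted p = 0.0999). Fdft1 and Cyp51 each overlap a gene on the opposite strand.

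Of 47 microsomal cytochromes P450 and haem oxygenases, 32 did not pass the count filter, and 16 of those had 0 counts in every library. Of the 15 tested, 5 were higher and 0 lower, with a median of 0.09. Cyp1b1, which oxidises aromatic compounds and oestrogens, rose from 53.77 ± 3.91 to 113.7 ± 18.7 CPM (SD, n = 3), for a log2 difference of 1.08 (SE 0.14, edgeR adjusted p = 0.000322). Cyp2f2 went from 7, 6 and 7 counts to 29, 22 and 28 counts, or by 1.78 log2 units (SE 0.31). Cyp2d10 went from 4, 1 and 4 counts to 41, 20 and 14 counts (2.82, SE 0.55), with control replicate 2 below the floor of 3 counts. Both passed the count filter only through the OE-labelled libraries. At such control levels they could be tested only if higher, so they are given with no p, though they are among the 5. Cyp2f2 overlaps a gene on the opposite strand. Cyp2d10 overlaps a gene on its own strand and belongs to a multigene family whose members can share reads. Cyp2j6, an epoxygenase of fatty acids, rose by 0.64 (SE 0.18, edgeR adjusted p = 0.0184), which was lost without control replicate 1 or 2, without OE-labelled replicate 2 and in DESeq2 (highest adjusted p 0.0882). Hmox1 and Hmox2, the haem oxygenases that POR feeds, named afterwards, had 0.09 (edgeR adjusted p = 0.708) and 0.17 (edgeR adjusted p = 0.399). The count of 5 became 3 without control replicate 1 or 2 or OE-labelled replicate 2, and 8 without a count filter.

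The cofactor list holds the haem pathway and the riboflavin steps that make the flavins of the reductases; 5 of its 12 genes were higher and 1 lower, with a median of 0.4. The riboflavin transporters Slc52a3 and Slc52a2 rose by 1.04 (SE 0.18, edgeR adjusted p = 0.00137) and 1.29 (SE 0.27, edgeR adjusted p = 0.00388), the second from 10, 20 and 15 counts to 40, 41 and 45 counts. Urod rose by 0.83 (SE 0.18, edgeR adjusted p = 0.00508) and Ppox by 1.01 (SE 0.28, edgeR adjusted p = 0.0173), both enzymes of haem synthesis. The Ppox call was lost without control replicate 1 or 2 or OE-labelled replicate 3 (highest edgeR adjusted p 0.0755), and Ppox overlaps B4galt3 on the opposite strand. Alas1, the first enzyme of haem synthesis, was the gene that fell, from 48.4, 51.1 and 53 CPM to 26.7, 34.6 and 44 CPM (-0.54, SE 0.18, edgeR adjusted p = 0.0363); it was named after its values were seen. Its call was lost with library totals, without control replicate 1, 2 or 3 and without OE-labelled replicate 2 (highest edgeR adjusted p 0.124). Alas1 also overlaps a gene on the opposite strand. The count of 6 became 3 without control replicate 1 or 2.

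Cytochrome b5 is a tail-anchored protein, inserted into membranes by its C-terminal end. Of 15 genes of tail-anchored protein insertion, 7 were higher and 1 lower, with a median of 0.46. Whether these genes act on cytochrome b5 in these cultures was not tested. Bag6, which hands such proteins to the insertion machinery, rose from 77.73 ± 3.09 to 131.8 ± 12.4 CPM (SD, n = 3), for a log2 difference of 0.76 (SE 0.12, edgeR adjusted p = 0.00072). Ubl4a, its partner, rose by 0.72 (SE 0.16, edgeR adjusted p = 0.00554). Emc1 and Emc3, subunits of the membrane insertase EMC, rose by 0.87 (SE 0.16, edgeR adjusted p = 0.00174) and 0.61 (SE 0.14, edgeR adjusted p = 0.00572), while the EMC subunit Emc7, named afterwards, fell by 0.66 (edgeR adjusted p = 0.0133; 0.0686 without control replicate 2). Emc1, Emc3 and Ubl4a each overlap a gene on their own strand, and Emc1 and Emc7 each overlap one on the opposite strand. The targeting ATPase Asna1 and the receptor subunit Get1, both named afterwards, had -0.37 (edgeR adjusted p = 0.137) and 0.37 (edgeR adjusted p = 0.26). Without control replicate 2 the count of 8 became 5. With the GC offset 4 genes were higher and 2 lower, and with the replicate block as well 5 were higher and 2 lower.

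Of the 9 tested relatives with a cytochrome b5 fold or a similar reductase, 2 were higher and 0 lower, with a median of 0.26. Pgrmc2, a haem-binding membrane protein with a cytochrome b5-like domain, had 110.2, 96.6 and 99.1 CPM in control and 161.7, 144.3 and 134 CPM in OE-labelled libraries, a difference of 0.52 log2 units (SE 0.12, edgeR adjusted p = 0.00582). Its paralogue Pgrmc1, named afterwards, had -0.39 (SE 0.24, edgeR adjusted p = 0.241), with 23.5, 41.7 and 57.5 CPM in OE-labelled replicates 1, 2 and 3, the first and second below the control range of 49.3 to 58 CPM and the third inside it. Cyb5rl, a reductase-like gene, rose by 0.95 (SE 0.31, edgeR adjusted p = 0.0359) from 11, 17 and 9 counts to 34, 24 and 24 counts. Its control libraries alone would not have passed the count filter, which favours a call as higher. In 7 of 17 alternatives it did not pass, among them those without control replicate 1 or 3 or without OE-labelled replicate 1 or 2 (highest edgeR adjusted p 0.151, without control replicate 3). The list count of 2 became 1 in those fits and 4 without OE-labelled replicate 3. Mtarc2, the mitochondrial reductase that works with Cyb5b, also named afterwards, had 0.09 (SE 0.1, edgeR adjusted p = 0.56).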

How the data were processed

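Sample titles gave the groups and replicate numbers, and columns were matched to samples through the library names in the descriptions. The authors deposited estimated counts per Ensembl gene, not normalized; 2843 values were fractional, none of them in a member, and all were rounded. Per the labels' protocols the library kit was a 3′ mRNA kit, so counts do not scale with transcript length. STAR, HTSeq and the builds mm10 and GRCm38 are named in the submitters' processing notes; strand setting and handling of multi-mapping reads are not given in the sources used here. The groups were compared over all 6 libraries with edgeR 4.0.16 in R 4.3.3 (filterByExpr, TMM, quasi-likelihood test, Benjamini-Hochberg over 10687 genes); standard errors are the estimate over the square root of F. The script was tested on simulated data. A floor of 3 counts lay at 1.18 to 1.41 CPM and covers counting error only. Alternatives used DESeq2 1.42.0, limma 3.58.1, other scalings, filters, a GC offset, the replicate block and single libraries left out; removal of CT010467.1 was added after seeing the data. Positions, overlaps and GC content come from GENCODE M21, which held 99.5% of the identifiers. Named genes were the members, up to 4 genes per list with the smallest p among those passing, and the 2 most similar genes per member (average log2 CPM of at least 3); 1 gene selected this way is not reported here. The members and lists were chosen with earlier results of these data known.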

Additional observations from a re-analysis of the deposited data

How the results depend on the processing

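Cyb5a, Cyb5b and Cyb5r3 stayed positive and Por negative in all 17 alternatives, with log2 fold changes of 1.3 to 1.46, 0.38 to 0.58, 0.45 to 0.78 and -0.72 to -0.35. Of 102 member values, 99 moved by less than the spread between replicates, the root of the summed group variances of log2 CPM. That spread was 0.37 for Cyb5r1 and 0.36 for Cyb5r4, wider than their log2 fold changes of 0.17 and 0.1. For these genes even a change of sign could lie within it. The GC offset moved Cyb5b to 0.58 and Por to -0.71, while the block of replicate number plus GC offset moved Por to -0.72; the cause was not tested. The number of genes past the threshold, 3118, was 3112 with the replicate block. Equally numbered libraries correlated at 0.11, 0.02 and 0.08 in their deviations from the group means, and the other pairs at -0.13 to 0.05. For each OE-labelled library the equally numbered control was the highest, by a small margin, so these values do not decide on pairing. The numbers were not taken to pair the libraries because the labels do not say so. Leaving out single libraries gave 1748 to 3532 genes and, for the lists, 1 to 4 (related proteins), 4 to 11 (fatty acids), 3 to 6 (squalene and sterols), 3 to 5 (P450), 3 to 8 (cofactors) and 5 to 8 (tail-anchored insertion). These fits have fewer samples. DESeq2 called 1 related protein and 6 fatty acid genes. The GC offset, alone or with the block, left 1 related protein; with the block it left 6 fatty acid and 2 sterol genes. Without a count filter 8 P450 genes passed. Of 374 alternative values of the list genes named by rule, 345 had the same direction and call, 29 lost the call and 0 reversed. Depth limits Cyb5r4, at 33 to 53 counts, and most P450 genes.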
